A study of Danio rerio with 4 samples.

Results

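Apolipoproteins are the protein shells of the particles that carry fat through the circulation. Of the 7 apolipoprotein and lipoprotein assembly genes followed here (apobb, apoba, apoa2, apoea, apoeb, apom and mttp), chosen by gene symbol, 6 were found by that symbol among the 32512 gene lines. Counts above 0 were listed for 4 of them (apobb, apoa2, apoeb and apom). Apoba (ENSDARG00000042780, Zv9 chr17:30763178-30787076, plus strand) and apoea (ENSDARG00000086370, chr19:11954418-11958954, minus strand) were listed at 0 in all 4 libraries and were therefore not quantified. No gene line carried the symbol mttp. A RefSeq synonym links mttp to mtp, and both gene lines named mtp, on chromosome 1, were also listed at 0. In all, 19279 of the 32512 gene lines were at 0 in all libraries, so such a 0 is no measure of absence.

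RNA came from whole 48-hour-old (48 hours post fertilisation, hpf) zebrafish embryos of the Tübingen wild-type background. The hace1 morphants had been injected with a morpholino, a synthetic antisense oligonucleotide, that blocks splicing of hace1 upstream of the codon for the catalytic cysteine of its ubiquitin ligase domain. The control morphants had been injected with a standard control morpholino. Each group had 2 libraries, A and B, and each library pooled 3 RNA samples of many embryos. The labels do not say that the pools came from separate clutches, so the error behind each p-value is that between RNA pools, which may be technical. The oligonucleotides are shown because they define the groups, 5′ to 3′ as the labels give them.
hace1 morpholino: ccctcgaactgttagacagaataaa
control morpholino: cctcttacctcagttacaatttata

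Estimated gene counts summed to 9856173 and 10413981 in the hace1 libraries, and to 5192490 and 8596019 in the control libraries. Of 10832 tested genes, 299 were called between the groups by limma-voom at a Benjamini-Hochberg adjusted p below 0.05, 149 of them higher and 150 lower in hace1 morphants. Control A, the shallowest library, stood apart with fewer counts in the 3′ ends of genes, with values given beside the exons. Total hace1 RNA was 13.7 and 13.5 CPM in hace1 morphants and 18.6 and 13.5 CPM in control morphants, where CPM is the count scaled to a common library size. A splice-blocking oligonucleotide need not lower the total count of its target, so these values do not check the knock-down.

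Apolipoprotein B is the large, non-exchangeable scaffold of very-low-density lipoproteins and chylomicrons. Microsomal triglyceride transfer protein, the product of mttp, loads lipid onto it in the endoplasmic reticulum, and the particle leaves in COPII vesicles. Apolipoproteins E, A-II and M are small proteins that can exchange between particles. Before a zebrafish larva feeds, the yolk syncytial layer, a shared-cytoplasm layer around the yolk, packs yolk lipid into such particles and releases them to the body.

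None of the 4 quantified genes was called between hace1 and control morphants by limma-voom (2 had an unadjusted p below 0.05), against 2.76% of all tested genes. Apobb and apoeb were the members in which both hace1 libraries lay above both control libraries, as in 26.7% of all tested genes. Their folds by limma-voom were 1.43 and 1.45. The groups of apoa2 and apom overlapped. The higher hace1 values of apobb and apoeb were seen only with the 3′-terminal exon of each gene counted. With the counts of that exon left out, the log2 fold change was -0.42 for apobb and -0.001 for apoeb. The confidence intervals, -0.90 to 0.07 for apobb and -0.44 to 0.44 for apoeb, both included no difference. That refit was chosen after the exon counts were seen. Control A had low 3′ shares over the genes at large, and its part in these values was not tested. Of the exons of these genes, the last exon of apobb was the one called as used differently, against 0.0257% of all tested exons called higher. That per-exon test was chosen after the exon counts were seen, and the call was lost with the sample letter as a block. By an F-test over all exons of a gene no member was called, against 0.112% of 7171 genes. In bulk RNA of whole embryos, fewer cells of a type and less RNA per cell cannot be told apart.

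Apobb (ENSDARG00000022767, current symbol apobb.1) encodes the structural apolipoprotein B and lies on Zv9 chr20:31295686-31310798, plus strand, with 27 exons. It had 17000 and 16194 counts in hace1 morphants A and B, against 5900 and 12545 counts in control morphants A and B. Scaled to library size this was 1829 and 1639 CPM in hace1 morphants, against 1021 and 1460 CPM in control morphants. Both hace1 libraries were above both control libraries, and control A was the lowest. The means were 1734 ± 134 CPM in hace1 morphants and 1240 ± 310 CPM in control morphants (SD, n = 2 libraries each). On the log2 scale the fold change was 0.51 with a standard error (SE) of 0.22 and a 95% confidence interval of 0.04 to 0.99 (limma-voom, Benjamini-Hochberg adjusted p = 0.192). It did not pass the threshold over all tested genes. With control B left out the log2 fold change was 0.76, and with control A left out it was 0.26. Whether apobb was called depended on the library left out, as did the number of all genes called. The gene has a near copy, apobl (current symbol apobb.2), and the sources used here do not say how the counting divided reads between the copies.

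Apoeb (ENSDARG00000040295, chr16:26200037-26202754, plus strand, 5 exon regions) encodes apolipoprotein E, the ligand by which receptors of the low-density lipoprotein family take up remnant particles. It had 1410 and 1243 CPM in hace1 morphants A and B, against 932 and 898 CPM in control morphants A and B. The groups did not overlap, and the control pair was the closer of the pairs. The means were 1326 ± 119 CPM in hace1 morphants and 915 ± 23.6 CPM in control morphants (SD, n = 2 libraries each). Its log2 fold change was 0.53 ± 0.19 SE, with a 95% confidence interval of 0.12 to 0.94 (limma-voom, Benjamini-Hochberg adjusted p = 0.128). Leaving out a control library gave a log2 fold change of 0.57 (control A) or 0.50 (control B). Leaving out a hace1 library gave 0.44 (hace1 A) or 0.62 (hace1 B). Whether apoeb was called changed with the library left out, and so did the number of all genes called. The calls in these fits are therefore no measure of how firm the apoeb difference was.

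Apoa2 (ENSDARG00000015866, chr16:26218271-26219647, plus strand, 4 exon regions) encodes apolipoprotein A-II, a protein of high-density lipoproteins. It had 2919 and 2500 CPM in hace1 morphants A and B, against 2104 and 3229 CPM in control morphants A and B. The control libraries held both the lowest and the highest value, so the hace1 libraries lay between them. The means were 2710 ± 296 CPM in hace1 morphants and 2666 ± 795 CPM in control morphants (SD, n = 2 libraries each). This gave a log2 fold change of 0.06 ± 0.24 SE, with a 95% confidence interval of -0.46 to 0.58 (limma-voom, Benjamini-Hochberg adjusted p = 0.905). Its sign turned when hace1 A (-0.05) or control A (-0.25) was left out.

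Apom (ENSDARG00000076838, chr2:42329859-42335679, minus strand, 7 exon regions) encodes apolipoprotein M, a lipocalin known in mammals as the carrier of sphingosine-1-phosphate on high-density lipoprotein. It was the least abundant quantified gene, with 64.6 and 47.2 CPM in hace1 morphants A and B, against 44.1 and 53.7 CPM in control morphants A and B. Hace1 A was the highest library and control A the lowest, and the groups overlapped. The means were 55.9 ± 12.3 CPM in hace1 morphants and 48.9 ± 6.79 CPM in control morphants (SD, n = 2 libraries each). Its log2 fold change was 0.17 ± 0.19 SE, with a 95% confidence interval of -0.25 to 0.59 (limma-voom, Benjamini-Hochberg adjusted p = 0.630), and it was -0.05 without hace1 A.

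**Figure D1:**
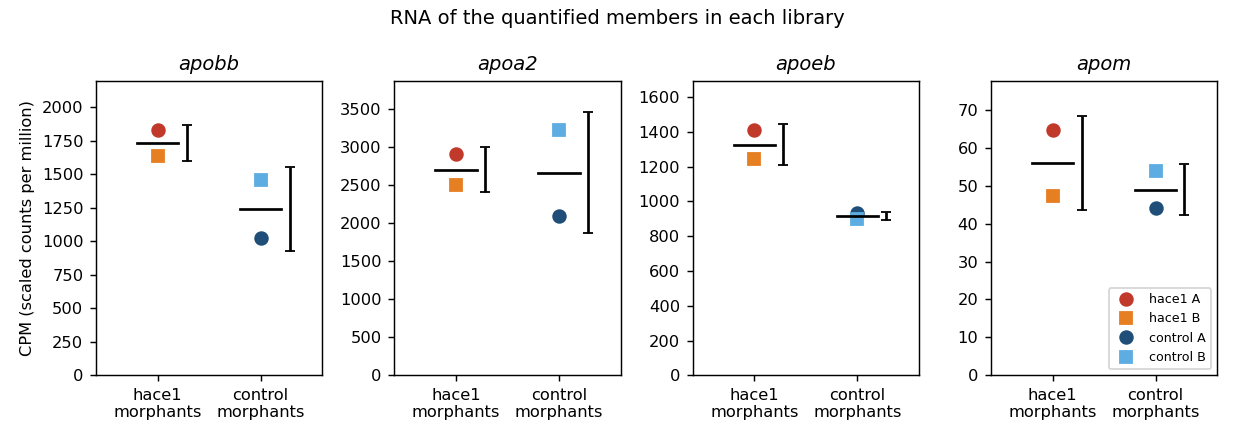
RNA of apobb, apoa2, apoeb and apom in each library, in CPM on linear axes from 0, with hace1 morphants left of control morphants; points are libraries, bars the mean and the bracket 1 SD (n = 2). Apobb and apoeb had both hace1 libraries above both control libraries, at 1829 and 1639 against 1021 and 1460 CPM for apobb, while the libraries of apoa2 and apom overlapped.

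Over the 4 genes, all log2 fold changes were above 0, as were those of 50.5% of the tested genes, and their median was 0.34 against 0.01 over all tested genes. Both hace1 libraries lay above both controls in 2 of the 4, against 26.7% of tested genes. An unadjusted limma-voom p below 0.05 was reached by 2 of the 4, against 22.4% of tested genes.

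Levels were compared between genes as CPM per kilobase of exonic length, a scale on which apoa2 was highest in every library. Apoa2 had 3439 ± 376 CPM per kilobase in hace1 morphants and 3384 ± 1009 in control morphants (SD, n = 2 libraries each). Apoeb followed with 691 ± 61.8 CPM per kilobase in hace1 morphants and 477 ± 12.3 in control morphants, then apobb with 151 ± 11.7 in hace1 morphants and 108 ± 27 in control morphants. Apom was lowest, with 72.2 ± 15.9 CPM per kilobase in hace1 morphants and 63.2 ± 8.77 in control morphants. Neighbours in this order did not overlap over the 4 libraries, although the lowest apobb value (88.8 in control A) and the highest apom value (83.5 in hace1 A) were close. Since most apobb counts lay in 1 exon, its mean over the whole exonic length of 11495 bases was far below the density of that exon. It was above the density of most of the other exons. The place of apobb above apom rested on its last exon.

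The exon lines showed where along each gene the counts lay. Apobb counts were concentrated in its last exon (chr20:31309588-31310798, 1211 bases), which in hace1 morphants A and B held 83.0% and 73.7% of all its exon counts, against 54.1% and 61.3% in control morphants A and B. Both hace1 shares were above both control shares, by 20.6 percentage points on average. The 95% Wilson intervals, which cover counting error only, were 82.4% to 83.5% and 73.0% to 74.3% in hace1 morphants, and 52.8% to 55.4% and 60.4% to 62.1% in control morphants. A difference at least as large in the same direction was found in 134 of 10732 genes compared (1.25%).

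The longest apobb exon, exon 24 (chr20:31302970-31308945, 5976 bases), had the opposite order, with both hace1 libraries below both control libraries. Its density was 37.6 and 55.7 CPM per kilobase in hace1 morphants A and B, against 57.2 and 69.4 in control morphants A and B. The last exon had 1253 and 997 CPM per kilobase in hace1 morphants, against 456 and 738 in control morphants. The last exon was thus 33.3 and 17.9 times as dense as exon 24 in hace1 morphants, and 7.98 and 10.6 times as dense in control morphants. Of the exons between them, exon 25 kept the order of exon 24, with 139 and 113 CPM per kilobase in hace1 morphants, against 204 and 149 in control morphants. Exon 26 had 101 and 125 CPM per kilobase in hace1 morphants, against 150 and 98.2 in control morphants, and the groups overlapped.

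**Figure D2:**
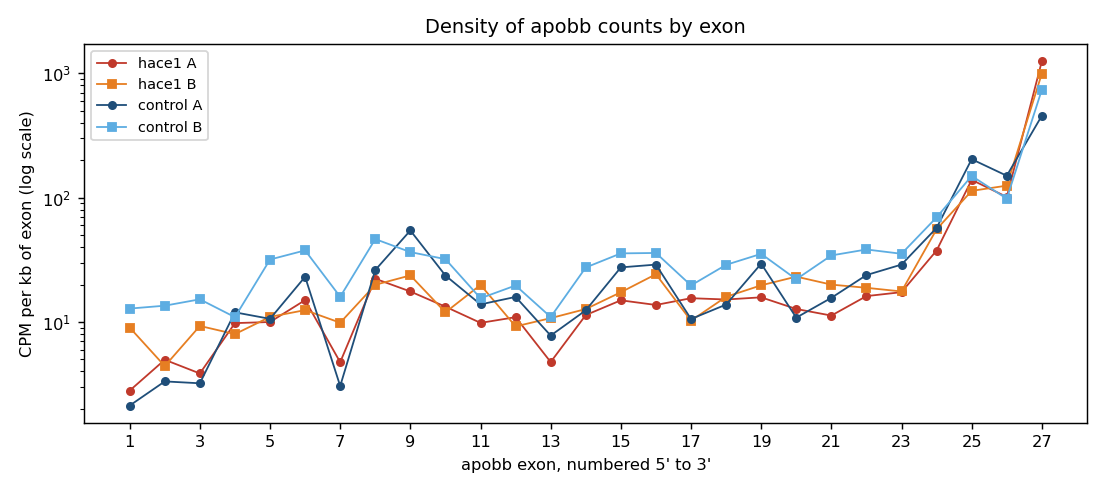
Density of counts over the 27 exons of apobb from 5′ to 3′, in CPM per kilobase of exon on a log axis, with 1 line per library. In the last exon the hace1 libraries reached 1253 and 997 against 456 and 738 in the control libraries, whereas in exon 24 both hace1 libraries were below both control libraries.

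Limma diffSplice, which asks whether an exon changed relative to the other exons of its gene, gave the last apobb exon a relative log2 fold change of 1.57 ± 0.31 SE (Benjamini-Hochberg adjusted p = 0.0229 over 58464 exons). This per-exon test was chosen after the exon counts were seen. Across all exons it called 0.0257% as higher (15 exons) and 4 as lower, and 16 of those 19 were 3′-terminal exons, 13 of them higher in hace1 morphants. Of the 58464 tested exons, 8331 were 3′-terminal. The call for apobb was not kept in every fit with 1 library left out. The relative log2 fold change was 1.27 without hace1 A, 1.84 without hace1 B, 1.36 without control A and 1.76 without control B. By diffSplice's F-test over all exons of a gene, none of the 4 members was called (1 had an unadjusted p below 0.05), against 0.112% of 7171 genes. For apobb that test gave a limma diffSplice adjusted p of 0.877.

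In hace1 morphants A and B, the last exon region of apoeb (chr16:26201918-26202754, 837 bases) held 78.0% and 73.2% of its exon counts, against 58.2% and 68.8% in control morphants A and B. The groups did not overlap, and control A was the lowest. The mean difference was 12.1 percentage points, which 636 of the 10732 genes (5.93%) reached or passed. The density in that region was 1283 and 1074 CPM per kilobase in hace1 morphants, against 648 and 736 in control morphants. In the region before it, of 666 bases, the density was 237 and 276 CPM per kilobase in hace1 morphants, against 299 and 214 in control morphants, and the groups overlapped. Relative to the other exons, the last apoeb exon had a log2 fold change of 0.68 and was not called (limma diffSplice, Benjamini-Hochberg adjusted p = 1.00).

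Apoa2 had 83.6% and 81.3% of its exon counts in its last exon region in hace1 morphants A and B, against 79.7% and 79.2% in control morphants A and B. For apom, whose last region is short, the shares were 29.6% and 27.3% in hace1 morphants A and B, against 23.1% and 18.9% in control morphants A and B. The mean differences of 3.02 percentage points for apoa2 and 7.49 for apom were reached or passed by 42.6% and 16.1% of the genes compared. In all 4 members both hace1 shares were above both control shares, against 27.8% of the 10732 genes, with 9.92% the other way. The median share over all genes was 43.6% and 43.5% in hace1 morphants A and B, and 37.6% and 43.2% in control morphants A and B. Control A was thus lower than the other libraries over the genes at large. For all 4 members the shares were higher in each hace1 library than in either control library. Without control A, the last exon relative to the other exons had a log2 fold change of 1.36 for apobb and 0.51 for apoeb. For apoa2 it was 0.35 and for apom 0.78. With all libraries the values were 1.57, 0.68, 0.47 and 0.59 in the same order of genes. The part of control A in the shares themselves was not tested.

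**Figure D3:**
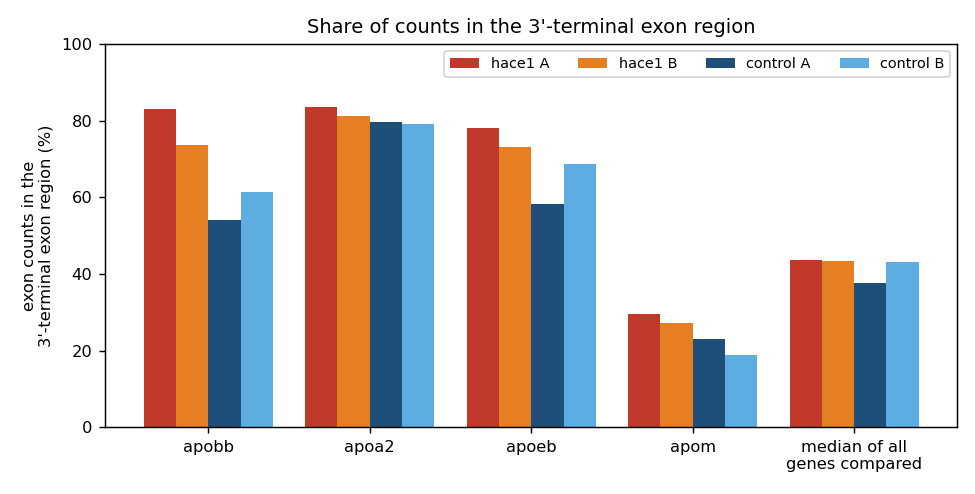
Share of exon counts in the 3′-terminal exon region of each quantified gene, in percent on an axis from 0 to 100, with 1 bar per library and the median over the 10732 genes compared at the right. Both hace1 bars exceeded both control bars for each gene, by the widest margin for apobb (83.0% and 73.7% against 54.1% and 61.3%).

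Gene counts were therefore refitted over all genes in 2 further ways, both chosen after the exon counts were seen: without the 3′-terminal exon region, and with that region alone. In each, CPM is relative to the counts that remained. Without the region, apobb had 549 and 738 CPM in hace1 morphants A and B, against 742 and 978 CPM in control morphants A and B. Hace1 morphants were lower on average, and hace1 B lay just below control A. The log2 fold change was -0.42 ± 0.23 SE, with a 95% confidence interval of -0.90 to 0.07 (limma-voom, Benjamini-Hochberg adjusted p = 0.316). Apoeb had 533 and 562 CPM in hace1 morphants A and B, against 617 and 484 CPM in control morphants A and B, and its groups overlapped. Its log2 fold change was -0.001, with a 95% confidence interval of -0.44 to 0.44 (limma-voom, Benjamini-Hochberg adjusted p = 0.998). Apoa2 (-0.10) and apom (0.10) had log2 fold changes near 0. None of the 4 was called by limma-voom (0 with an unadjusted p below 0.05), against 1.83% of 9506 genes tested this way.

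With the 3′-terminal region alone, apobb had 3620 and 2882 CPM in hace1 morphants A and B, against 1560 and 2163 CPM in control morphants A and B. The log2 fold change was 0.82 ± 0.21 SE, with a 95% confidence interval of 0.37 to 1.27 (limma-voom, Benjamini-Hochberg adjusted p = 0.0727). Both hace1 libraries were above both controls for apobb, as they were for apoeb and apom, while those of apoa2 overlapped. How many of all genes had this order in these counts was not determined. Apoeb had 2564 and 2146 CPM in hace1 morphants A and B, against 1531 and 1490 CPM in control morphants A and B (0.64 ± 0.18 SE, limma-voom adjusted p = 0.0956). The log2 fold change was 0.51 ± 0.26 SE for apom and -0.02 for apoa2. None of the 4 was called by limma-voom (2 with an unadjusted p below 0.05), against 0.822% of 8763 genes tested this way.

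**Figure D4:**
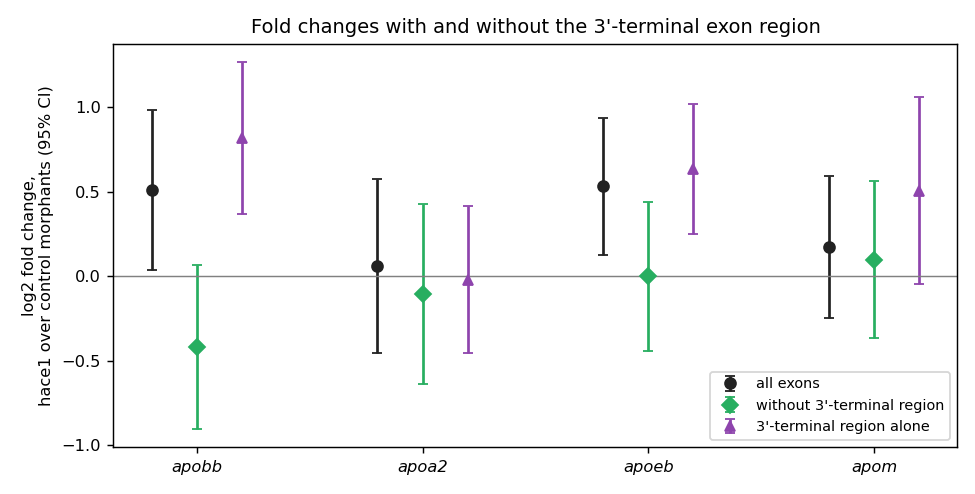
Log2 fold change of each quantified gene, hace1 over control morphants, with 95% confidence intervals from limma-voom, using all exons, all but the 3′-terminal region, and that region alone. Apobb moved from 0.51 with all exons to -0.42 without the region and 0.82 in the region alone, and apoeb was at -0.001 without it.

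The transcript lines gave each annotated transcript as an estimated share of its gene. The second apoa2 transcript, apoa2-002, held 89.9% and 88.4% in hace1 morphants A and B, against 77.8% and 85.2% in control morphants A and B. The first, apoa2-001, held 9.78% and 11.2% in hace1 morphants, against 22.0% and 14.6% in control morphants. These transcripts together held nearly all of the gene, so their shares mirror each other. The groups did not overlap, and control A was farthest from the rest. With estimated shares and 2 libraries a group no test was made of them. How many transcripts of all genes had non-overlapping groups was not determined. Apobb and apoeb each had 1 dominant transcript, at over 98% in every library, and the main apom transcript held 95.7% and 92.4% in hace1 morphants and 94.0% and 96.5% in control morphants.

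Apoeb and apoa2 are neighbours on chromosome 16, with 15.5 kb from the end of one to the start of the other, in a stretch of 77.1 kb that holds 9 gene lines. Upstream of apoeb, apoa4 (current symbol apoa4b.1), whose product is an apolipoprotein of intestinal particles in mammals, had 1070 and 767 CPM in hace1 morphants, against 594 and 609 CPM in control morphants. Like apoeb it had non-overlapping groups and was not called (log2 fold change 0.59 ± 0.20 SE, limma-voom adjusted p = 0.120). Apoc1l, between apoeb and apoa2, had 650 and 562 CPM in hace1 morphants, against 430 and 628 CPM in control morphants (0.23 ± 0.21 SE, limma-voom adjusted p = 0.567). Apoc2, whose product is the activator of lipoprotein lipase, had 195 and 161 CPM in hace1 morphants, against 160 and 195 CPM in control morphants. The second apoa4 copy that was quantified (apoa4b.2) had a log2 fold change of -0.06. The groups thus overlapped for apoa2, apoc1l, apoc2 and the second apoa4 copy, and did not for apoa4 and apoeb. Of all tested genes, 26.7% had both hace1 libraries above both controls and 26.9% had both below. Apoa4 copies resemble each other, and the same uncertainty over shared reads holds for them.

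The tested genes whose library profile was nearest to that of apoa2, the most abundant member, were apobl, npc2 and fkbp2. The root-mean-square difference of their centred log2 CPM from that of apoa2 over the 4 libraries was 0.00742, 0.0304 and 0.0306. Apobl, the near copy of apobb, had 31.2 and 27 CPM in hace1 morphants, against 22.4 and 34.8 CPM in control morphants, the same order of libraries as apoa2. With 4 libraries many genes can share such an order.

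Of the other apolipoproteins, 16 gene lines were found, 7 at 0 in all libraries and 8 tested. None was called by limma-voom (2 had an unadjusted p below 0.05), 6 had a log2 fold change above 0, and the median was 0.13, with a range of -0.25 to 0.73. The highest was clu, which encodes clusterin (apolipoprotein J), with 34.2 and 36.9 CPM in hace1 morphants, against 19.2 and 23.3 CPM in control morphants (0.73 ± 0.18 SE, limma-voom adjusted p = 0.0524). It is named here after its value was seen. Apoa1a and apoa1b, which encode the main protein of high-density lipoprotein, were listed at 0. Over all tested genes, 2.76% were called and 22.4% had an unadjusted p below 0.05, the shares to set beside this list and those below.

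Genes of particle assembly and secretion had 24 tested members of 33 gene lines, none called by limma-voom (2 with an unadjusted p below 0.05), 14 with a log2 fold change above 0 and a median of 0.08. Sec24a, a cargo-selecting subunit of the COPII coat, had 386 and 485 CPM in hace1 morphants, against 223 and 326 CPM in control morphants (0.69 ± 0.21 SE, limma-voom adjusted p = 0.0948). Both hace1 libraries were above both controls, as in 26.7% of all tested genes, and sec24a did not pass the threshold. Sar1b, the GTPase that starts that coat and is needed in humans for chylomicron secretion, had 239 and 205 CPM in hace1 morphants, against 159 and 235 CPM in control morphants, and the groups overlapped. P4hb, whose product is the partner subunit of the microsomal triglyceride transfer protein, was listed at 0.

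Lipoprotein receptors and their regulators had 14 tested members of 26 gene lines, none called by limma-voom (4 with an unadjusted p below 0.05), 5 with a log2 fold change above 0 and a median of -0.13. Vldlr, which encodes a receptor that binds apolipoprotein E-bearing particles, had 80.2 and 94.5 CPM in hace1 morphants, against 96.9 and 115 CPM in control morphants (limma-voom adjusted p = 0.360). Lrp6, which encodes a Wnt co-receptor of the same family, had 205 and 231 CPM in hace1 morphants, against 190 and 217 CPM in control morphants. Lipases, transfer proteins and lipid exporters had 11 tested members of 22 gene lines, none called by limma-voom (2 with an unadjusted p below 0.05), and 10 had a log2 fold change above 0, with a median of 0.28 and a range of -1.05 to 0.55. The gene below 0 was abca1a, a paralogue of abca1b named after its value was seen, with 2.52 and 2.50 CPM in hace1 morphants, against 5.87 and 4.83 CPM in control morphants (-1.05 ± 0.31 SE, limma-voom adjusted p = 0.0836). Abca1b, a cholesterol exporter that lipidates apolipoprotein A-I, had 101 and 99.8 CPM in hace1 morphants, against 82.8 and 83.2 CPM in control morphants (0.28, limma-voom adjusted p = 0.316). Npc2, which moves cholesterol out of lysosomes, had 143 and 117 CPM in hace1 morphants, against 101 and 150 CPM in control morphants.

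Sterol and fatty acid synthesis genes had 12 tested members of 34 gene lines, of which 1 was called, lower, against 1.38% of tested genes called lower. This was scap, whose product escorts the sterol-sensing transcription factors SREBP to the Golgi. It had 29.1 and 26.3 CPM in hace1 morphants, against 51.6 and 41.8 CPM in control morphants, and the groups did not overlap. The log2 fold change was -0.74 ± 0.18 SE (limma-voom, Benjamini-Hochberg adjusted p = 0.0493). The call sat at the threshold. It was lost without the filter on low counts (limma-voom adjusted p = 0.0569), with limma trend at either prior count (adjusted p = 0.0531 and 0.0541), with the authors' deposited log2 values (limma adjusted p = 0.0569) and relative to genes of like exonic length (limma-voom adjusted p = 0.0576). It was also lost when either hace1 library was left out. The log2 fold change was then -0.82 (limma-voom adjusted p = 0.430, hace1 A left out) or -0.67 (limma-voom adjusted p = 0.552, hace1 B left out).

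**Figure D5:**
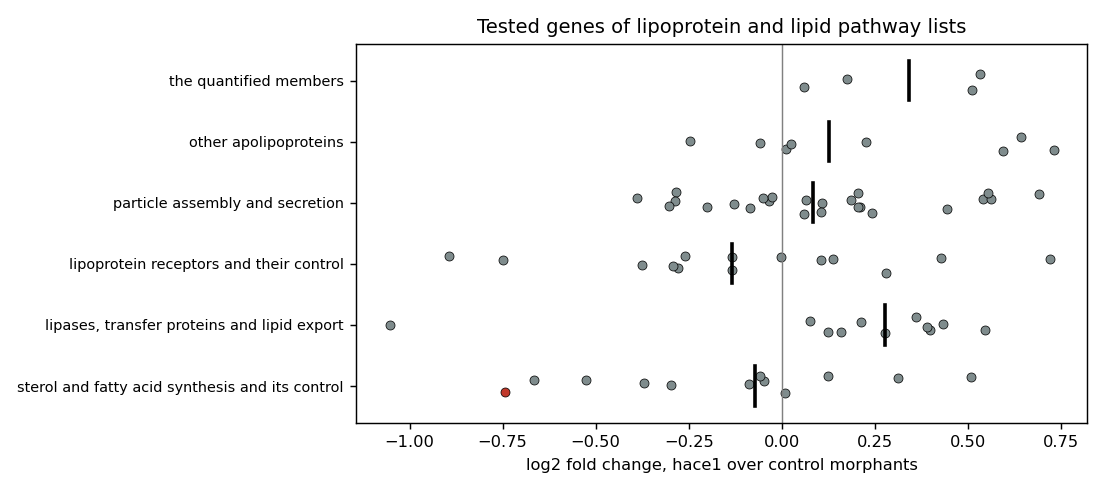
Log2 fold change, hace1 over control morphants, of each tested gene of the quantified members and the 5 pathway lists; each point is a gene, the vertical bar is the median, and the red point is scap, the gene called. The medians ran from -0.13 for receptors to 0.34 for the 4 members.

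Marker lists of tissues that make or take up lipoproteins were summed beside these genes. None of their members was called by limma-voom, against 2.76% of all tested genes. The yolk syncytial layer list had 6 tested members of 15 gene lines, with mxtx2, slc40a1 and apoa1b at 0. It summed to 562 and 525 CPM in hace1 morphants and 490 and 571 CPM in control morphants. An unadjusted p below 0.05 was reached by 2 of its members, ctsba (higher in hace1 morphants) and tfa (lower). The liver list had 11 tested members of 16 gene lines and summed to 827 and 807 CPM in hace1 morphants, against 700 and 692 CPM in control morphants. An unadjusted p below 0.05 was reached by 7 of these 11, 5 of them higher in hace1 morphants, against 22.4% of all tested genes. Liver markers as a sum were thus higher in both hace1 libraries, as apobb and apoeb were, and their part in those differences was not tested. Within that list the members differed in direction, with 8 of the 11 above 0. The fibrinogen gene fga had a log2 fold change of 0.67 (limma-voom adjusted p = 0.0535). Tfa was lower, with 148 and 143 CPM in hace1 morphants, against 200 and 199 CPM in control morphants (-0.46, limma-voom adjusted p = 0.129). Fabp10a, a liver fatty acid binding protein, had 1.46 and 1.75 CPM in hace1 morphants, against 2.05 and 2.04 CPM in control morphants. The liver markers gc and prox1a were listed at 0.

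The intestine list had 6 tested members of 9 gene lines and summed to 171 and 149 CPM in hace1 morphants and 156 and 195 CPM in control morphants. Macrophage and microglia markers, which mark cells that express apoeb, had 10 tested members of 29 gene lines and summed to 49.8 and 47.3 CPM in hace1 morphants, against 54.3 and 57.3 CPM in control morphants, with csf1ra and marco at 0. This sum was lower in both hace1 libraries, but its members differed in direction, with 4 of the 10 above 0. Mpeg1, a macrophage gene, had 4.14 and 3.12 CPM in hace1 morphants, against 2.98 and 2.25 CPM in control morphants. Lcp1 went the other way, with 11.1 and 9.71 CPM in hace1 morphants, against 14.0 and 11.2 CPM in control morphants. The median log2 fold change of this list was -0.23, and several of its tested lines were mfap4 copies. The brain glia list had 7 tested members of 12 gene lines and summed to 2256 and 2169 CPM in hace1 morphants, against 2352 and 2750 CPM in control morphants, with gfap and s100b at 0. Its members also differed in direction, with 4 of the 7 above 0 and a median log2 fold change of 0.14. Fabp7a, a brain fatty acid binding protein gene, had the lowest value (-0.77). An unadjusted limma-voom p below 0.05 was reached by 5 glia markers (3 higher and 2 lower in hace1 morphants), 1 macrophage and 1 intestine marker (both lower) and 2 kidney markers (both higher). Over all tested genes the share was 22.4%. The kidney list had 8 tested members of 9 gene lines and summed to 375 and 401 CPM in hace1 morphants and 381 and 381 CPM in control morphants.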

How the data were processed

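RNA of 4 pooled libraries of whole embryos (48 hpf) was sequenced on an Ion Proton, 2 libraries per chip, per the labels. The sources used here do not say which, so an effect of the chip and of the morpholino cannot be told apart if a group shared one. Per the submitters' processing notes, the build was Zv9 and the tools were TopHat2 2.0.6, Bowtie2 2.0.2, DESeq and cutadapt 1.2.1. Not given in the sources used here are the program that made the counts, its strand setting and the gene annotation.

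The authors deposited estimated counts (94.2% of values not whole, another unit than raw counts) for genes, exons and transcripts in an annotation file, so edgeR and DESeq2 were not run. The authors also deposited log2 values per gene, which for 98.9% of 12216 genes equalled, within 0.001, the median-centred log2 of the size-factor-scaled count. All value columns were matched to samples and 0 were left over.

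Counts were scaled by an own trimmed mean of M values (30% of log ratios and 5% of levels trimmed). A gene was tested if 2 libraries or more reached the equivalent of 10 counts in a library of median size and its total reached 15 (10832 genes). The test was limma-voom (limma 3.58.1, R 4.3.3) on group alone, with Benjamini-Hochberg adjustment over these genes, called below 0.05. Exon use was tested with limma diffSplice on distinct exons. Identical exons were counted once, and overlapping exons were kept apart in the main fit. For the regions, overlapping exons were merged, and the most 3′ merged region is the 3′-terminal region. The tests were checked on simulated data. Named are all members, per pathway list up to 4 called genes or else the 2 most abundant, and the 3 nearest profiles. Genes outside this rule, such as clu and those of the marker lists and the chromosome 16 stretch, were chosen after their values were seen. Members and lists were chosen with earlier results of these data known. Gene names were matched to current symbols and, for mttp, to RefSeq synonyms.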

Additional observations from a re-analysis of the deposited data

How the results depend on the processing

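No member was called under any other scaling, filter, test, pseudocount, length allowance or block, and these kept apobb between 0.50 and 0.63, apoeb between 0.47 and 0.55 and apom between 0.11 and 0.20 on the log2 scale. For apoa2 they gave -0.00064 (relative to genes of like exonic length) to 0.07. Without 1 library the members called ranged from 0 to 2, the members with called exon use from 0 to 3 and all genes called from 8 to 2572, the last without control B. In those fits the lone library is assumed to vary like the other group. Leaving out a library gave apobb 0.26 to 0.76, apoeb 0.44 to 0.62, apoa2 -0.25 to 0.36 (-0.05 without hace1 A, -0.25 without control A) and apom -0.048 (without hace1 A) to 0.41. Whether exon use was called for apobb, apoa2 and apoeb depended on the library left out. Without the 3′-terminal region 174 genes were called and the sign turned for apobb (-0.42), apoa2 (-0.10) and apoeb (-0.0010). With that region alone 72 were called and apoa2 was at -0.021. Since fewer genes were tested in both, the counts are not directly comparable with 299.

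With the sample letter as a replicate block, 914 genes were called, no member among them, and the last exon of apobb missed the threshold (1.58, limma diffSplice adjusted p = 0.0757). The A minus B differences of the groups had a correlation of 0.0112 across 10832 genes. The labels do not say what the letter stands for, and this value cannot show whether libraries of the same letter share an origin. The last exon of apobb had 1.55 with a stricter exon filter (limma diffSplice adjusted p = 0.0160) and 1.57 with overlapping exons merged (limma diffSplice adjusted p = 0.0493). For scap the adjusted p of limma ranged from 0.00751 (with the block) to 0.0576 over the other gene-level settings, from 9.55e-06 to 0.552 without 1 library, and was 0.0652 without the 3′-terminal region and 0.454 with it alone. Leaving genes over 1% of a library out of the scaling raised the length-scaled levels (apoa2 in hace1 morphants 4040 against 3439 CPM per kilobase) and kept the order of the genes. The cause of these changes was not tested.

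The limits are 2 libraries a group, with the controls farther apart than the hace1 libraries for apobb and apoa2, and a 5192490-count control A with the lowest 3′ shares over genes at large. For apom, with 255 to 601 counts a library, the interval was -0.25 to 0.59, so no difference within it can be set aside. A gene listed at 0 may reflect the counting, so apoba, apoea and mtp carry no result. Wilson intervals cover counting error only.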

Other observations

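Several genes of lipid handling that the naming rule did not reach had an unadjusted limma-voom p below 0.05, as had 22.4% of all tested genes. They did not pass the adjusted threshold and are listed here after their values were seen. Scarb1, which encodes the high-density lipoprotein receptor SR-BI, had 14.5 and 12.9 CPM in hace1 morphants, against 7.93 and 8.47 CPM in control morphants (log2 fold change 0.72, limma-voom adjusted p = 0.0956). Lrp1bb, which encodes a large receptor of the low-density lipoprotein family, had 9.42 and 13.4 CPM in hace1 morphants, against 20 and 21.9 CPM in control morphants (-0.89, limma-voom adjusted p = 0.0515). Neither gene's groups overlapped, while of all tested genes 26.7% had both hace1 libraries above both controls and 26.9% had both below.

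Among sterol and fatty acid genes, insig1, whose product retains SCAP in the endoplasmic reticulum, had 25.9 and 25.7 CPM in hace1 morphants, against 35.1 and 39.2 CPM in control morphants (-0.53, limma-voom adjusted p = 0.104). Fasn, fatty acid synthase, had 17.8 and 17.3 CPM in hace1 morphants, against 33.5 and 23.7 CPM in control morphants (-0.67, limma-voom adjusted p = 0.0927). Fdps, an enzyme of the mevalonate pathway, went the other way, with 67.2 and 60.7 CPM in hace1 morphants, against 44.8 and 44.9 CPM in control morphants (0.51, limma-voom adjusted p = 0.10).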
